A study of Drosophila melanogaster with 13 samples.

Results

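The roX1 by roX2 interaction contrast measures, for each gene, how far expression in the roX1 roX2 mutant departed from the sum of the changes in the roX1 mutant and in the roX2 mutant. It is the log2 level in the roX1 roX2 mutant, minus that in the roX1 mutant, minus that in the roX2 mutant, plus that in wildtype. A value of 0 means that the log2 changes of the single mutants added up in the roX1 roX2 mutant, a negative value that the gene was lower there than this sum, and a positive value that it was higher. All 13 of the 13 libraries entered the contrast, and 13975 of the 17476 counted genes had at least 20 reads summed over the libraries and were tested.

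RNA-seq of polyadenylated RNA was done on whole first instar male larvae, with 20 pooled larvae per library. The roX1 roX2 mutant (3 libraries) carried the deletions roX1[ex6] and roX2[9-4], with y[1] and w[1118], and the study's methods add v[1] to it. The roX1 mutant (4 libraries) carried roX1[ex6] with y[1] and w[1118]. The roX2 mutant (3 libraries) carried roX2[9-4] with y[1], cho[2] and v[1], and wildtype (3 libraries) carried y[1] and w[1118] alone. All larvae were sons without GFP of fathers that carried FM7i with an ActGFP marker, and only the mothers of the roX1 roX2 mutant sons were heterozygous over that balancer. The 4 genotypes are not isogenic, a single mutant allele stands for each roX gene, and w and v alleles differ between the lines. By the study's account the crosses leave all autosomes heterozygous, with only part of them of the same origin in every genotype. Genotype and genetic background, on the X chromosome and on the autosomes, therefore cannot be told apart. Nothing in the labels says that libraries of a genotype came from separate crosses, and the p-values of single genes measure the spread between these libraries.

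In Drosophila melanogaster males the MSL complex binds the single X chromosome and raises the output of its genes, and its MOF subunit acetylates histone H4 at lysine 16. The complex holds the proteins MSL1, MSL2, MSL3, MLE and MOF and the long non-coding RNAs roX1 and roX2, which are transcribed from the X chromosome and differ in length and in much of their sequence. It first binds high-affinity sites (HAS) on the X chromosome and from there reaches active genes nearby. The RNAs have long been called redundant because males that lack either are viable while most males that lack both die before adulthood. For each gene the contrast gives the departure from additive single mutant changes. It is no direct measure of that redundancy, since other differences between the lines and libraries enter it too.

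The labels were checked on the roX genes. roX1 had 1.40 to 4.06 CPM (counts scaled to library size) in the roX1 roX2 mutant and 0.769 to 3.41 CPM in the roX1 mutant, against 1355 to 2016 CPM in the roX2 mutant and 971 to 1131 CPM in wildtype. roX2 was at 0 to 0.0451 CPM in the roX1 roX2 mutant and 0 to 0.0365 CPM in the roX2 mutant, against 29.8 to 36.4 CPM in the roX1 mutant and 18.5 to 25.3 CPM in wildtype. Each roX gene was thus higher in all libraries that lacked only the other roX gene than in all wildtype libraries, but neither change passed edgeR's quasi-likelihood test with Benjamini-Hochberg adjustment (roX1 in the roX2 mutant, log2 change 0.73, adjusted p = 0.614; roX2 in the roX1 mutant, log2 change 0.56, adjusted p = 0.444). An interaction has no meaning for these deleted genes.

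Libraries differed beyond genotype. Each library held 45620194 to 83954893 counts on genes. The mitochondrial large ribosomal RNA took 20.9% of them in roX2 mutant replicate 2 and 7.41% to 12.6% in the other libraries. The first principal component of genes on 2L, 2R, 3L and 3R set roX1 mutant replicates 1 and 2, roX2 mutant replicate 4 and wildtype replicate 1 apart on a high side, while all 3 roX1 roX2 mutant libraries lay with 6 others on the low side. Summed expression of 48 Osiris and Tweedle genes, which are active while cuticle is laid down, was 4171 to 21160 CPM on the high side and 1097 to 2882 CPM on the low side. Results are therefore also given for the 9 libraries of the low side. The summed level of 20 testis markers was 39.7 CPM in roX2 mutant replicate 3, 11.9 to 16.4 CPM in the roX1 roX2 mutant and at most 9.03 CPM in the other libraries; mia alone averaged 7.74 CPM in the roX1 roX2 mutant and 3.46 CPM in wildtype. Of these markers 11 were higher and 5 lower in the roX1 roX2 mutant than in wildtype, and without mia their sum was 4.99 to 7.22 CPM in the roX1 roX2 mutant, 36.6 CPM in roX2 mutant replicate 3 and 3.16 to 4.69 CPM elsewhere. The sum of 12 markers of later larval stages was 7.86 to 8.28 CPM in the roX1 roX2 mutant and at most 3.60 CPM elsewhere. Sgs5 carried it: without Sgs5 the sum was 0.669 to 1.66 CPM in the roX1 roX2 mutant and 0.431 to 3.41 CPM elsewhere, and 10 of the 12 were lower in the roX1 roX2 mutant than in wildtype. Fewer cells of a type and less RNA per cell cannot be told apart in whole larvae, and the part of stage and tissue content in the results below was not tested.

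Of the X chromosome, the major autosome arms and chromosome 4, the X chromosome lay furthest from additivity. The mean log2 CPM of 2136 X genes, less that of the genes of the 4 major autosome arms and with the wildtype mean set to 0, was -0.484, -0.520 and -0.513 in the roX1 roX2 mutant. It was -0.112, -0.089, -0.040 and -0.103 in the roX1 mutant, 0.009, 0.014 and -0.002 in the roX2 mutant and -0.012, 0.014 and -0.002 in wildtype. The roX1 roX2 mutant libraries lay far below all others, the roX1 mutant libraries lay a little below wildtype without overlap, and the roX2 mutant libraries overlapped with wildtype. The roX1 roX2 mutant averaged -0.505 ± 0.019 (SD, n = 3), the roX1 mutant -0.086 ± 0.032 (SD, n = 4) and the roX2 mutant 0.007 ± 0.008 (SD, n = 3), and wildtype had an SD of 0.013 (n = 3).

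The sum of the single mutant values was -0.079, and the interaction of the X chromosome was -0.427 (SE 0.021) on the log2 scale. Put another way, loss of roX2 moved the X chromosome by -0.420 where roX1 was lost too and by 0.007 where roX1 was present. Loss of roX1 moved it by -0.513 where roX2 was lost too and by -0.086 where roX2 was present. The interaction was -0.439 among the 9 libraries of the low side. An exact two-sided permutation test over the 1201200 assignments of genotype labels to libraries gave p = 0.101 (adjusted p = 0.299 over 4 such tests). It shuffled all 4 genotype labels together, so it asked whether genotypes differed at all, not whether their effects added up. Shuffles that keep the low roX1 roX2 mutant libraries together in a group can give a contrast of like size. This p therefore cannot decide whether the interaction exceeds the spread between libraries. When the interaction was divided by its standard error, a statistic chosen after the data were seen, the same shuffles gave p = 0.0001998 (exact permutation test, adjusted p = 0.000799 over 4 tests).

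**Figure D1:**
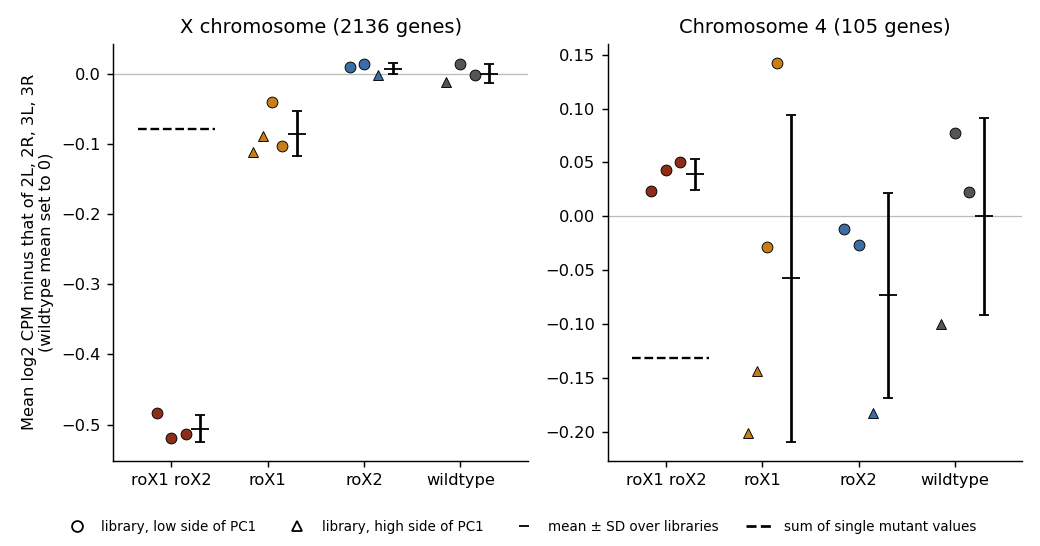
Mean log2 CPM of the genes of the X chromosome (left) and chromosome 4 (right) minus that of the 4 major autosome arms in each library, with the wildtype mean set to 0. Points are libraries, with the shape giving the side of the first principal component (PC1), crosses with bars are means ± SD, and the dashed line is the sum of the single mutant values. On the X chromosome the 3 roX1 roX2 mutant libraries sit between -0.520 and -0.484, below the sum of -0.079.

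Additivity depends on the scale. The library values of the X chromosome were also turned back from log2 to ratios on a linear scale. These ratios were 0.704 ± 0.009 of wildtype for the roX1 roX2 mutant (SD, n = 3), 0.942 ± 0.021 for the roX1 mutant (SD, n = 4) and 1.005 ± 0.006 for the roX2 mutant (SD, n = 3), while wildtype had an SD of 0.009 (n = 3). They count weak and strong genes alike and do not measure total X chromosome output. The interaction of these ratios was -0.243 (SE 0.013). The same library values were thus below the additive sum in both forms, which is no separate check.

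The shift took in most genes of the chromosome. The median interaction of X genes was -0.52, with quartiles of -0.96 and -0.10, while that of the 11494 genes on the 4 major autosome arms was 0.02. Of the X genes 79.5% had a negative interaction, against 49.0% of the major autosome genes. The median log2 change of the X genes was -0.56 in the roX1 roX2 mutant, -0.04 in the roX1 mutant and 0.01 in the roX2 mutant, each against wildtype. The mean over the fitted gene values was also lower on the X chromosome, by 0.36 relative to the mean of the major arms, which was itself -0.28. In a split added after the data were seen, X genes were put into 3 equal groups by mean level over all libraries and set against autosomal genes of the same range. Library means gave interactions of -0.280 (SE 0.078) in the lowest, -0.537 (SE 0.049) in the middle and -0.474 (SE 0.050) in the highest group, while means over the fitted gene values gave -0.128, -0.535 and -0.475.

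**Figure D2:**
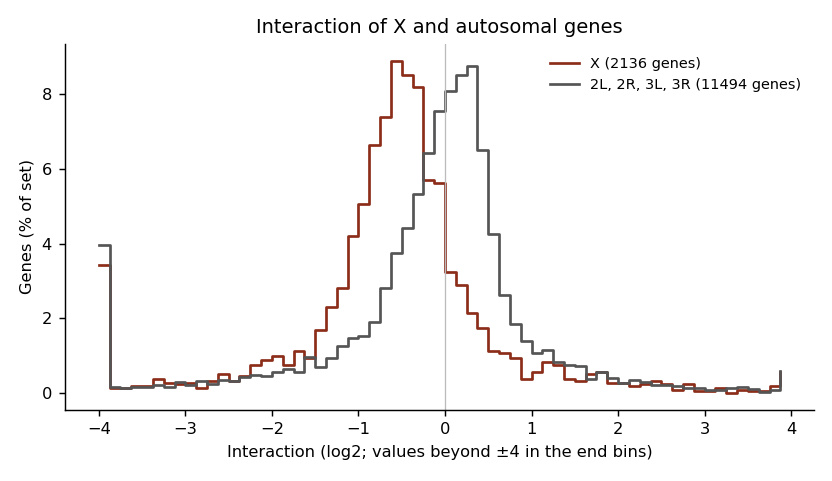
Share of genes in bins of the interaction (log2) for 2136 X genes and 11494 genes of the major autosome arms. The X distribution lies to the left, with a median of -0.52 against 0.02, and values beyond ±4 are collected in the end bins.

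The autosome arms lay nearer to additivity. Per library means gave interactions of 0.047 (SE 0.043) for 2L, -0.005 (SE 0.024) for 2R, 0.005 (SE 0.039) for 3L and -0.035 (SE 0.018) for 3R, each relative to the 4 arms together. Medians over genes lay between 0.01 and 0.02 on the 4 arms.

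For chromosome 4, which has its own chromosome-wide regulator POF, the departure did not pass the permutation test. Its relative level was 0.023, 0.043 and 0.050 in the roX1 roX2 mutant, -0.201, -0.143, -0.028 and 0.142 in the roX1 mutant, -0.011, -0.026 and -0.183 in the roX2 mutant and -0.100, 0.078 and 0.023 in wildtype. The groups overlapped except that no roX2 mutant library reached the roX1 roX2 mutant libraries. The interaction was 0.170 (SE 0.108; exact two-sided permutation p = 0.149, adjusted p = 0.299 over 4 tests). The 4 libraries of the high side had the 4 lowest values, at -0.201 to -0.100, against -0.028 to 0.142 on the low side, where the interaction was 0.051. Of its 105 genes tested only yellow-h, a member of the yellow gene family, had an interaction past the threshold (log2 interaction -1.78, adjusted p = 0.0349 by edgeR's quasi-likelihood test with Benjamini-Hochberg adjustment), and it was named after its value was seen.

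At the level of single genes, 420 of 13975 (3.01%) departed from additivity at an adjusted p under 0.05 by edgeR's quasi-likelihood test with Benjamini-Hochberg adjustment, 328 of them lower (2.35%) and 92 higher (0.658%) than the sum of the single mutant changes. For comparison, 9.08% of genes differed from wildtype in the roX1 roX2 mutant, 1.32% in the roX1 mutant and 0.351% in the roX2 mutant. On the X chromosome 195 of 2142 genes were called lower (9.10%) and 5 higher (0.233%). On the major arms 129 of 11494 genes were called lower (1.12%) and 85 higher (0.740%). The 5 X-linked genes called higher, named after their values were seen, were Crg-1, Gr8a, Ubi-p5E and the non-coding genes lncRNA:CR44498 and lncRNA:CR45533. The number of calls rested on single libraries. It was 97, 73 and 146 without roX1 roX2 mutant replicates 2, 3 and 4, 236, 247 and 261 without roX1 mutant replicates 1, 2 and 3, 174 without roX2 mutant replicate 4, and 90 and 131 without wildtype replicates 3 and 4. Without roX2 mutant replicate 3, the library with the high testis marker level, it was 1401, with 436 X-linked genes lower, and 60.3% of the calls were lower. With normalization to autosomal genes 545 genes were called, of which 85.1% were lower, against 78.1%. In each of these fits every gene called with all 13 libraries that was tested had the same sign.

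**Figure D3:**
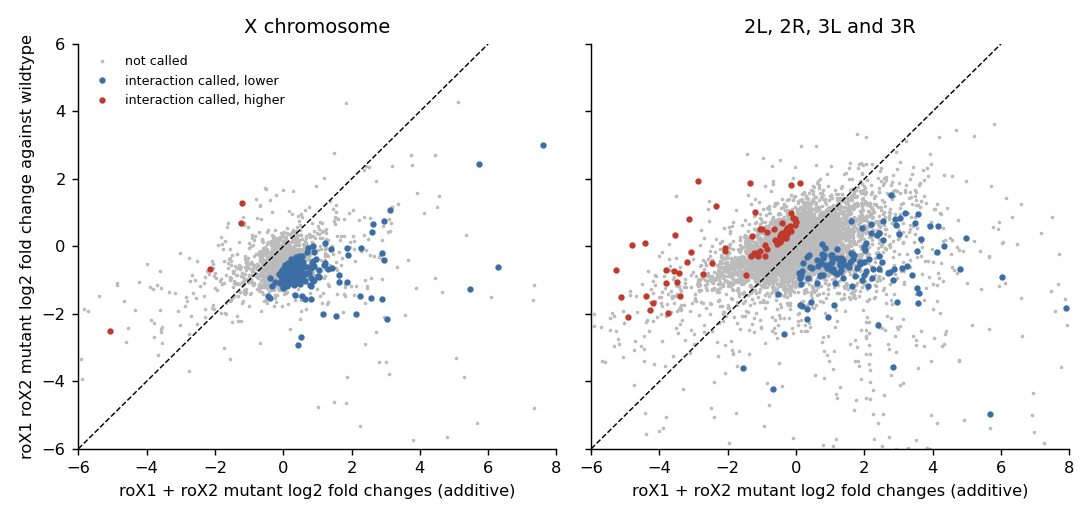
Log2 fold change of each gene in the roX1 roX2 mutant against the sum of its log2 fold changes in the roX1 mutant and the roX2 mutant, all against wildtype, for the X chromosome and the major arms. The dashed line marks additivity; genes with at most 3 reads in every library of a genotype are left out, as are points beyond the axes. Called X genes gather at sums just above 0 and roX1 roX2 mutant values around -0.77, while called autosomal genes spread along the horizontal axis.

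X-linked and autosomal calls had unlike medians in the single mutants. The calls were made on these same values, so the choice itself favours single mutants that lie opposite to the roX1 roX2 mutant. These medians carry no test. The 195 X-linked genes called lower had median log2 changes of -0.77 in the roX1 roX2 mutant, 0.25 in the roX1 mutant and 0.13 in the roX2 mutant, and their median interaction was -1.11. All X genes had medians of -0.56, -0.04 and 0.01 in the same order. Of the 195 genes 150 also differed from wildtype in the roX1 roX2 mutant, and 177 differed from wildtype in neither single mutant. Over all genes tested 9.08% differed from wildtype in the roX1 roX2 mutant, 1.32% in the roX1 mutant and 0.351% in the roX2 mutant, so most genes differed in neither single mutant. The 129 autosomal genes called lower had medians of -0.57 in the roX1 roX2 mutant, 1.10 in the roX1 mutant and 0.49 in the roX2 mutant, with 27 past the threshold in the roX1 roX2 mutant, 41 in the roX1 mutant and 7 in the roX2 mutant. The 85 autosomal genes called higher had medians of 0.20 in the roX1 roX2 mutant, -0.60 in the roX1 mutant and -0.71 in the roX2 mutant. Among the low side libraries all 195 X-linked genes called lower kept the negative sign and 116 were called again, as were 84 of the 129 autosomal genes called lower and 53 of the 84 tested autosomal genes called higher.

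With a limit of 1.5-fold against wildtype, the called genes fell into patterns that describe their values and carry no test of their own. In the most frequent pattern among the 328 lower calls only the roX1 roX2 mutant was past the limit (128 genes, 111 of them on the X chromosome). No mutant was past the limit in 41 genes, 31 of them X-linked. In 71 genes both single mutants were above wildtype past the limit, and the roX1 roX2 mutant was also above in 20, within the limit in 25 and below in 26; 16 of the 71 were X-linked. In 68 genes only the roX1 mutant was above, 23 of them X-linked, and in 13 only the roX2 mutant, 10 of them X-linked. With a limit of 2-fold, added after the data were seen, 48 genes changed only in the roX1 roX2 mutant (35 X-linked) and 174 had no mutant past the limit (132 X-linked).

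AnxB11, which encodes a calcium-dependent phospholipid-binding annexin, had the smallest p among X-linked genes that changed only in the roX1 roX2 mutant. It stood at 44.0, 43.4 and 45.4 CPM in the roX1 roX2 mutant, 85.2, 82.6, 93.7 and 90.9 CPM in the roX1 mutant, 92.8, 87.6 and 90.4 CPM in the roX2 mutant and 85.9, 83.2 and 82.3 CPM in wildtype. The single mutants and wildtype lay together, and the roX1 roX2 mutant libraries lay at about the same low value. Its interaction was -1.10 (SE 0.12, adjusted p = 0.00129 by edgeR's quasi-likelihood test with Benjamini-Hochberg adjustment), with the call kept in all 13 fits that left out a library.

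Idh3a, the alpha subunit of mitochondrial NAD-dependent isocitrate dehydrogenase in the citric acid cycle, showed the same form at a higher level. It had 202, 217 and 235 CPM in the roX1 roX2 mutant, 402, 396, 491 and 469 CPM in the roX1 mutant, 492, 516 and 483 CPM in the roX2 mutant and 479, 449 and 473 CPM in wildtype. All 10 libraries with at least a single roX gene lay above all roX1 roX2 mutant libraries, in a gene also picked by its p from this pattern. The interaction was -1.10 (SE 0.16, adjusted p = 0.00603 by edgeR's quasi-likelihood test with Benjamini-Hochberg adjustment).

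Further X-linked genes of this pattern, listed by p after their values were seen, were Prp5 (an RNA helicase of the splicing machinery), CG12121, CG4332, Miga (a mitochondrial outer membrane protein that promotes fusion), cv (crossveinless, an extracellular modulator of BMP signalling), CG7872, CG4239 and CG15743. Their interactions ran from -0.90 (SE 0.13) for Miga to -1.45 (SE 0.20) for Prp5. In each of these 8 genes all roX1 roX2 mutant libraries lay below all 10 other libraries. Choosing genes by p from this pattern favours such a gap, and its share over all X genes was not counted. Miga, for example, had 13.7, 13.02 and 13.7 CPM in the roX1 roX2 mutant, 23.7 to 27.4 CPM in the roX1 mutant, 21.4 to 23.5 CPM in the roX2 mutant and 21.9 to 24.1 CPM in wildtype. In CG7872 the roX1 mutant passed the test in the other direction (log2 change 0.54, adjusted p = 0.0404), at 52.0 to 68.9 CPM against 41.7 to 43.2 CPM in wildtype.

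CG15599, also X-linked, was near 0 in the roX1 roX2 mutant. It had at most 3 reads in any roX1 roX2 mutant library (0, 0.0345 and 0.0451 CPM), against 3.55 to 4.59 CPM in the roX1 mutant, 3.12 to 4.33 CPM in the roX2 mutant and 6.46 to 7.64 CPM in wildtype. The single mutants lay below wildtype without overlap, at log2 changes of -0.82 and -0.86 that did not pass the test. The interaction was called (adjusted p = 0.000802), but so few reads give its size no firm value.

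**Figure D4:**
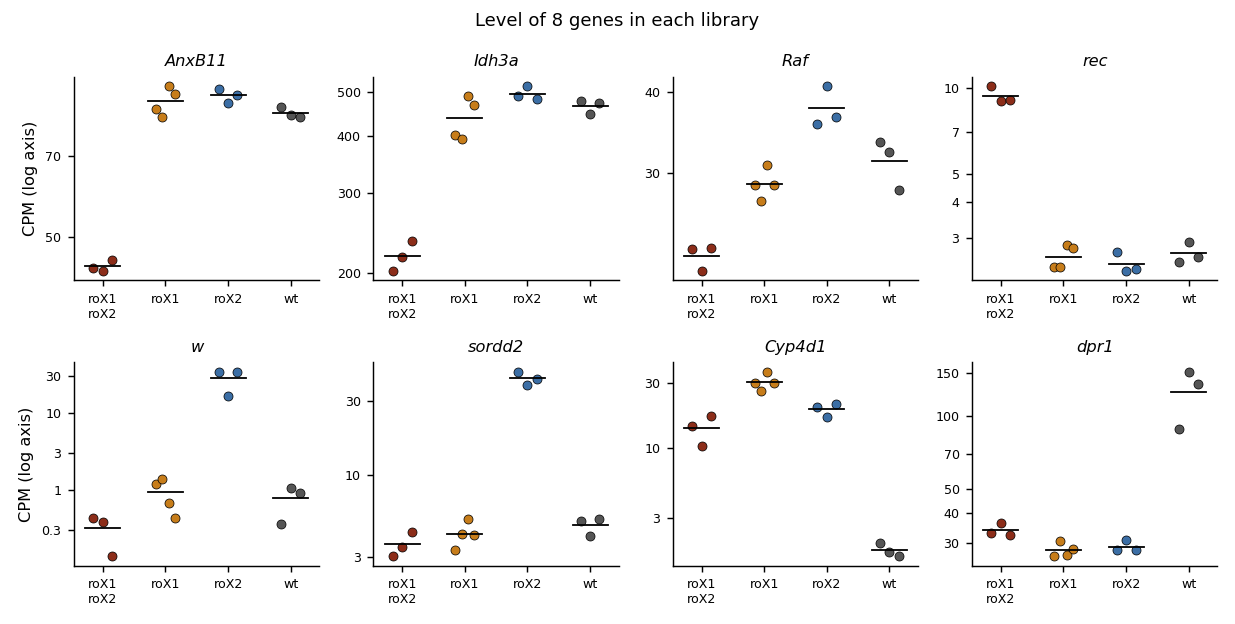
CPM of 8 genes in each library on a log axis, with lines at the group means. In AnxB11, Idh3a and rec only the roX1 roX2 mutant stands apart (for rec upward, at 9.01 to 10.1 CPM against at most 2.90 CPM), in w and sordd2 the roX2 mutant, in Cyp4d1 and dpr1 wildtype; Raf passed the test with a smaller shift.

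In other X-linked calls a single mutant lay above wildtype and the roX1 roX2 mutant did not. Pgant7, a transferase that starts mucin-type O-glycans, had 17.0, 19.7 and 17.0 CPM in the roX1 roX2 mutant, 50.3 to 60.7 CPM in the roX1 mutant, 31.4 to 46.0 CPM in the roX2 mutant and 32.9 to 34.95 CPM in wildtype. It fell in the roX1 roX2 mutant (log2 change -0.94, adjusted p = 0.0038) and rose in the roX1 mutant (0.69, adjusted p = 0.0343), which gave an interaction of -1.75 (SE 0.20, adjusted p = 0.00141 by edgeR's quasi-likelihood test with Benjamini-Hochberg adjustment). CG10962 had 1.19 to 1.77 CPM in the roX1 roX2 mutant, 19.7 to 36.0 CPM in the roX1 mutant, 3.58 to 6.22 CPM in the roX2 mutant and 6.81 to 12.3 CPM in wildtype, with all 4 groups apart. Its log2 changes were -2.68 in the roX1 roX2 mutant, 1.49 in the roX1 mutant and -0.96 in the roX2 mutant, and its interaction was -3.21 (SE 0.40). For sordd2 it was the roX2 mutant that stood apart, at 46.4, 38.2 and 41.8 CPM, while the roX1 roX2 mutant had 3.02, 3.50 and 4.36 CPM, the roX1 mutant 3.32 to 5.27 CPM and wildtype 4.06 to 5.27 CPM. Its interaction was -3.35 (SE 0.27, adjusted p = 0.00018).

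Cyp4d1, a cytochrome P450, had the smallest p of all X-linked genes, with a different form. It had 14.4, 10.3 and 17.3 CPM in the roX1 roX2 mutant, 26.4 to 36.5 CPM in the roX1 mutant, 19.9, 16.8 and 21.1 CPM in the roX2 mutant and 1.94, 1.69 and 1.56 CPM in wildtype. All mutants were above wildtype (log2 changes of 3.01, 4.15 and 3.47), so the interaction of -4.61 (SE 0.28, adjusted p = 3.006e-05) stands beside a level above wildtype in the roX1 roX2 mutant. In CG32537 both single mutants also lay above wildtype, with the roX1 roX2 mutant between them and wildtype, at 3.36 to 4.57 CPM in the roX1 roX2 mutant, 6.24 to 8.21 CPM in the roX1 mutant, 6.70 to 8.07 CPM in the roX2 mutant and 2.38 to 3.46 CPM in wildtype (interaction -2.18, SE 0.26, adjusted p = 0.00229).

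w and its neighbours were high only in the roX2 mutant, and the labels give w[1118] to every line but this. The roX1 roX2 mutant carried the same roX2 deletion with w[1118] and was low. Per the methods its X chromosome is a recombinant of both single mutant chromosomes, with the crossover between cho and v. Its w[1118] allele thus came from the roX1 mutant chromosome. At w and its neighbours an interaction and the background of the roX2 mutant line cannot be told apart. The study excluded these genes because its strains differ in this region. w (white, a transporter subunit of eye pigment precursors) had 0.135 to 0.428 CPM in the roX1 roX2 mutant, 0.430 to 1.39 CPM in the roX1 mutant, 16.4 to 34.3 CPM in the roX2 mutant and 0.359 to 1.04 CPM in wildtype. Of the 5 neighbours, CG3588 had 221 to 737 CPM and CG14419 79.6 to 157 CPM in the roX2 mutant, both with at most 1.09 CPM in any other library. Both were called, as was w, while CG14416, CG14417 and CG14418 had reads only in the roX2 mutant and were not. These 6 genes were left out of chromosome means, medians and shares below 0 but not of the counts of calls, and without them 192 of 2136 X genes were called lower (8.99%). v (vermilion, tryptophan oxygenase), mutated in the roX2 mutant line and per the methods in the roX1 roX2 mutant, had 0.0861 to 0.120 CPM in the roX1 roX2 mutant, 18.5 to 50.4 CPM in the roX1 mutant, 0.263 to 0.311 CPM in the roX2 mutant and 18.5 to 26.6 CPM in wildtype. The interaction of v did not pass the threshold in all 13 libraries (adjusted p = 0.0575) and did in the 9 of the low side (adjusted p = 0.00479). y (yellow), whose y[1] allele all lines share, was not called (interaction -3.50, adjusted p = 0.204, and 1.16 over the libraries of the low side).

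Among autosomal genes the smallest p belonged to Obp56a, an odorant-binding protein gene on 2R. It had 20.6, 28.1 and 32.4 CPM in the roX1 roX2 mutant, 590, 605, 632 and 490 CPM in the roX1 mutant, 232, 101 and 131 CPM in the roX2 mutant and 91.4, 77.2 and 91.6 CPM in wildtype. It rose in the roX1 mutant (log2 change 2.74, adjusted p = 0.000582) and fell in the roX1 roX2 mutant (-1.68, adjusted p = 0.00505), so the groups lay on both sides of wildtype. The interaction was -5.26 (SE 0.39, adjusted p = 0.000152 by edgeR's quasi-likelihood test with Benjamini-Hochberg adjustment).

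CG32073 and CG12522, neighbours on 3L, moved alike. CG32073 had 42.01, 52.97 and 50.4 CPM in the roX1 roX2 mutant, 306 to 489 CPM in the roX1 mutant, 326 to 565 CPM in the roX2 mutant and 103 to 178 CPM in wildtype. It rose in each single mutant and fell in the roX1 roX2 mutant, with an interaction of -4.59 (SE 0.37, adjusted p = 0.00018). CG12522 had 122, 117 and 123 CPM in the roX1 roX2 mutant, 381 to 527 CPM in the roX1 mutant, 398 to 883 CPM in the roX2 mutant and 178 to 200 CPM in wildtype (interaction -3.53, SE 0.37, adjusted p = 0.00121), with no overlap between the roX1 roX2 mutant and any other group in either gene.

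rec, which encodes an MCM-related protein needed for meiotic crossovers, was the autosomal gene with the smallest p among those that changed only in the roX1 roX2 mutant. It had 10.1, 9.01 and 9.08 CPM in the roX1 roX2 mutant, 2.37 to 2.83 CPM in the roX1 mutant, 2.30 to 2.67 CPM in the roX2 mutant and 2.48 to 2.90 CPM in wildtype. The other 3 groups overlapped, and the interaction was 1.98 (SE 0.20, adjusted p = 0.000802 by edgeR's quasi-likelihood test with Benjamini-Hochberg adjustment). Further genes that were higher only in the roX1 roX2 mutant, listed by p after their values were seen, were CG7110, Poc1 (a centriole protein), Epp and cav (caravaggio, a telomere capping protein), with interactions of 0.78 to 1.14. CG44040, Mal-A5 (a maltase) and CG42807 were lower only there, with interactions of -2.48, -1.55 and -1.30.

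cal1, the assembly factor that places the centromeric histone, crossed wildtype in opposite directions by small steps. It had 43.5, 38.6 and 41.6 CPM in the roX1 roX2 mutant, 19.7 to 22.4 CPM in the roX1 mutant, 17.5 to 21.5 CPM in the roX2 mutant and 26.9 to 30.3 CPM in wildtype. It rose in the roX1 roX2 mutant (log2 change 0.51, adjusted p = 0.0161), had log2 changes of -0.45 and -0.54 in the roX1 mutant and the roX2 mutant that did not pass the test, and had an interaction of 1.498 (SE 0.15, adjusted p = 0.000802).

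Some positive interactions came from genes that were low in every mutant. dpr1, an immunoglobulin-family cell surface protein of taste neurons, had 33.0, 36.3 and 32.3 CPM in the roX1 roX2 mutant, 26.4 to 30.5 CPM in the roX1 mutant, 28.02 to 30.9 CPM in the roX2 mutant and 88.3, 152 and 136 CPM in wildtype. It fell in all 3 mutants by similar amounts (log2 changes of -1.89, -2.16 and -2.11), and its interaction was 2.39 (SE 0.23, adjusted p = 0.000802). lncRNA:CR44660, annotated inside the span of dpr1 on 2R, had at most 3 reads in any mutant library and 5.15, 10.5 and 8.05 CPM in wildtype, and reads of overlapping genes cannot be told apart here. lncRNA:CR45284 on 2L had at most 0.1003 CPM in any mutant library and 1.36 to 3.09 CPM in wildtype. Both non-coding genes were called higher, but with groups so near 0 the size of the interaction has no firm value. Among the 92 higher calls, 22 had both single mutants and the roX1 roX2 mutant below wildtype past the 1.5-fold limit, and 8 were higher only in the roX1 roX2 mutant.

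The interactions of largest size lay in genes with few reads in some group. Of the lower ones, CG9698 on 3R had 0.102 to 0.210 CPM in the roX1 roX2 mutant, 2.08 to 12.7 CPM in the roX1 mutant, 0.498 to 0.870 CPM in the roX2 mutant and 0.188 to 0.359 CPM in wildtype, and was called in all 13 fits that left out a library. CG13983 and the cuticle protein gene Cpr47Ec had their highest levels in roX1 mutant replicates 1 and 2, at 84.0 and 53.1 CPM and at 475 and 277 CPM, and were called in 3 and 4 of these fits. CG15905, CG4650 and Drsl2, a member of the drosomycin-like antimicrobial peptide family, had at most 1 read in any roX1 roX2 mutant library. CG4650 had 1.09 to 2.40 CPM in the roX1 mutant and at most 1 read in every other library, and Drsl2 had 0.857 to 1.51 CPM in the roX2 mutant and at most 4 reads elsewhere. Without the high side libraries Drsl2 was not called (adjusted p = 0.145).

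Of the higher ones, Sgs5, a salivary gland glue protein gene of later larvae, had 5.65, 5.36 and 7.18 CPM in the roX1 roX2 mutant, no reads in the roX1 mutant, at most 1 read in the roX2 mutant and 0.198, 0 and 0 CPM in wildtype. It lost its call among the low side libraries (adjusted p = 1.00), where wildtype and the roX1 mutant had no reads, so the test cannot decide there. All 3 roX1 roX2 mutant libraries with its high values lie on that side. Jig had 0.428 to 1.22 CPM in the roX1 roX2 mutant and at most 0.260 CPM elsewhere. CG13135 had 1.14 to 2.39 CPM in the roX1 roX2 mutant and at most 0.217 CPM in the single mutants, with 0 to 1.36 CPM in wildtype. Srg2, Gr68a (a gustatory receptor) and lncRNA:CR32368 were lower in the single mutants than in the roX1 roX2 mutant, with lncRNA:CR32368 at 1.59 to 2.08 CPM in the roX1 roX2 mutant, 0.0851 to 0.234 CPM in the roX1 mutant, 0.602 to 0.968 CPM in the roX2 mutant and 1.33 to 2.55 CPM in wildtype (interaction 4.87, SE 0.52, adjusted p = 0.00129). Srg2 was called in 1 of the fits that left out a library and not on the low side (adjusted p = 0.0582).

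None of the 5 protein subunits of the MSL complex was called by edgeR's quasi-likelihood test with Benjamini-Hochberg adjustment, against 3.01% of all genes. This depended on the fit. DESeq2's Wald test, which called 1503 genes, also called msl-3 (adjusted p = 0.0123) and mof (adjusted p = 0.0165) but not msl-1, msl-2 or mle. With normalization to autosomal genes edgeR's test called mof (adjusted p = 0.0428). In the fits that left out a library msl-2 and msl-3 were each called in 1 of 13. msl-1 (the scaffold), msl-2 (the male-specific ubiquitin ligase), msl-3 (the chromodomain subunit) and mle (the RNA helicase) lie on autosomes and had interactions of 0.28, 0.31, 0.49 and 0.30. msl-2 had 53.4, 55.9 and 53.6 CPM in the roX1 roX2 mutant, 41.5 to 45.9 CPM in the roX1 mutant, 35.3 to 48.0 CPM in the roX2 mutant and 39.2 to 43.1 CPM in wildtype. Only the roX1 roX2 mutant lay above all other libraries, and msl-2 rose there against wildtype (log2 change 0.42, adjusted p = 0.0463). msl-3 had 28.1, 28.2 and 28.1 CPM in the roX1 roX2 mutant and 19.1 to 24.4 CPM in the other 10 libraries, without overlap (interaction adjusted p = 0.0877). mof, the acetyltransferase, is X-linked and had 10.9 to 12.9 CPM in the roX1 roX2 mutant, 14.1 to 16.6 CPM in the roX1 mutant, 15.8 to 18.3 CPM in the roX2 mutant and 13.3 to 16.3 CPM in wildtype, with an interaction of -0.64 (SE 0.17, adjusted p = 0.0711). Of 12 partners of the complex and subunits of the related NSL complex none was called either. The only X-linked member of these, wds, had the most negative value (-0.72, adjusted p = 0.0771), and Mgtor, the nuclear pore protein Megator, had 0.02. Of 5 regulators of chromosome 4 none was called, and Pof had an interaction of 0.02.

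Other gene groups were followed by counts. For comparison, 3.01% of all genes tested were called. Of the major autosome genes 49.0% had a negative interaction, and of the X genes 79.5%. A single call in a small group is not read as a result about the group. Genes that were not called are not thereby additive, since the gene test rarely called log2 interactions of 1 or -1 in simulated counts. Of 12 X-linked developmental regulators 10 had a negative interaction and only Raf, the kinase upstream of MEK in receptor tyrosine kinase signalling, was called. Raf had 22.8, 21.1 and 22.9 CPM in the roX1 roX2 mutant, 27.1 to 30.8 CPM in the roX1 mutant, 35.8 to 40.9 CPM in the roX2 mutant and 28.1 to 33.5 CPM in wildtype, with an interaction of -0.64 (SE 0.14, adjusted p = 0.037) that was called in 3 of the 13 fits that left out a library and missed the threshold on the low side (adjusted p = 0.0658). The median of the group was -0.22, against -0.52 for all X genes, and arm (beta-catenin) had -0.61, N (Notch) -0.68 and the kinase sgg 0.07, none of them called.

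Of 14 enzymes of glycolysis and the pentose phosphate pathway none was called, all 14 were negative and the median was -0.40, with -0.70 over the 4 X-linked members and -0.39 over the 10 autosomal ones. Of 15 sarcomere genes all were negative, with a median of -0.57, and only TpnC73F, a troponin C on 3L, was called. It had 204, 218 and 215 CPM in the roX1 roX2 mutant, 300 to 379 CPM in the roX1 mutant, 340 to 460 CPM in the roX2 mutant and 334 to 358 CPM in wildtype (interaction -0.88, SE 0.18, adjusted p = 0.0285, but 0.0633 among the low side libraries). Of 15 voltage-gated and related ion channels of neurons and muscle none was called and all were positive, with a median of 0.39, and the 5 X-linked members had 0.05 to 0.39. The median over all genes tested was -0.06.

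Of 85 cytoplasmic ribosomal protein genes 83 were negative, with medians of -0.71 over the 14 X-linked and -0.30 over the 71 others. RpL7A on the X chromosome (interaction -0.93, adjusted p = 0.0379) and RpL22-like on 2R (-1.54, adjusted p = 0.0474) were called, and neither was among the low side libraries (adjusted p = 0.115 and 0.0978). RpL7A had 1886, 1867 and 2308 CPM in the roX1 roX2 mutant, 2954 to 3521 CPM in the roX1 mutant, 2870 to 3711 CPM in the roX2 mutant and 2669 to 3048 CPM in wildtype, so the roX1 roX2 mutant lay below every other library.

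Of 15 heat shock genes, all autosomal, 14 were negative, with a median of -1.59. The chaperone genes Hsp23, Hsp26 and Hsp68 were called (3 of 15, against 3.01% of all genes). Hsp26 had 13.7, 8.42 and 8.88 CPM in the roX1 roX2 mutant, 9.52 to 15.7 CPM in the roX1 mutant, 12.7 to 24.4 CPM in the roX2 mutant and 5.88 to 6.61 CPM in wildtype. Every mutant library lay above wildtype and the 3 mutants overlapped, although no mutant passed the test on its own, and the interaction was -1.81 (SE 0.38, adjusted p = 0.0318). Every mutant library of Hsp23 lay above wildtype too (-2.19, adjusted p = 0.0468), and Hsp68 was highest in the roX1 mutant, at 18.7 to 75.2 CPM against 11.0 to 18.4 CPM in wildtype (-2.50, adjusted p = 0.0486). The 3 calls held in 2 to 5 of the 13 fits that left out a library and were all kept among the low side libraries. The copies of Hsp70 are nearly identical and their counts are uncertain.

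Of 14 genes of apoptosis and growth stress only Drice, the main effector caspase, was called. It had 26.6, 24.1 and 26.1 CPM in the roX1 roX2 mutant, 14.7 to 18.5 CPM in the roX1 mutant, 15.4 to 17.9 CPM in the roX2 mutant and 17.5 to 19.3 CPM in wildtype. It was higher in the roX1 roX2 mutant than in all 10 other libraries, and its interaction was 0.77 (SE 0.16, adjusted p = 0.0336). Of 46 Osiris and Tweedle genes tested 42 were negative and 2 cuticle genes, TwdlX and TwdlJ, were called (4.35%, against 3.01% of all genes). The sum of the family was 21160 and 16030 CPM in roX1 mutant replicates 1 and 2 and 1097 to 5025 CPM in the other libraries. On the low side, without these 2 replicates, 22 of 36 tested were negative, and without roX1 mutant replicate 2 alone 41 of 45 were negative and none was called. TwdlX, on the X chromosome, had 40.7 to 55.3 CPM in the roX1 roX2 mutant, 166 to 245 CPM in the roX1 mutant, 118 to 210 CPM in the roX2 mutant and 77.7 to 190 CPM in wildtype, and its interaction was -2.21 in all libraries and -1.40 on the low side. That of TwdlJ was -4.75 in all libraries and -2.66 on the low side, and both stayed called there. Of 18 testis markers tested none was called, and of 11 markers of later larval stages only Sgs5 was.

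The X chromosome was then divided by features measured outside these libraries. Of 1999 X genes with a distance to HAS published by the authors, 588 lay over 30 kb and 1411 at most 30 kb from a site. Per library means gave interactions of -0.300 (SE 0.109) for the far and -0.461 (SE 0.083) for the near genes, relative to the major arms. The difference of 0.161 (SE 0.143) was not larger than the spread between libraries (exact two-sided permutation p = 0.353, adjusted p = 0.471 over 4 tests). The far genes had a median interaction of -0.34, 66.3% of them were negative and 5.78% were called lower. Of the near genes 87.6% were negative and 11.3% were called lower, with a median of -0.56. The median interaction lay further from 0 near HAS, while the difference of the library means did not pass the test.

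MSL1 binding values, measured in cultured S2 cells and not in larvae, were there for 1643 X genes. In 5 equal bins of rising binding the interaction was -0.299 (SE 0.170), -0.424 (SE 0.049), -0.616 (SE 0.132), -0.508 (SE 0.111) and -0.478 (SE 0.094). Genes called lower made up 2.74%, 6.71%, 11.6%, 17.4% and 15.2% of the bins, and genes with a negative interaction 62.0%, 75.9%, 93.3%, 93.3% and 96.4%. The difference of the highest and the lowest bin was -0.180 (SE 0.211). It did not pass the exact two-sided permutation test (p = 0.497, adjusted p = 0.497 over 4 tests), also when divided by its standard error (p = 0.436, adjusted p = 0.436). The same limit of the shuffles holds here. The direction of the difference is not settled: it was -0.443 among the low side libraries and 0.060 when fitted gene values were averaged in place of library means. In the lowest bin the roX2 mutant libraries ranged from -0.069 to 0.380, with the highest value in the replicate with the high testis marker level, and in the highest bin from -0.067 to 0.033.

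**Figure D5:**
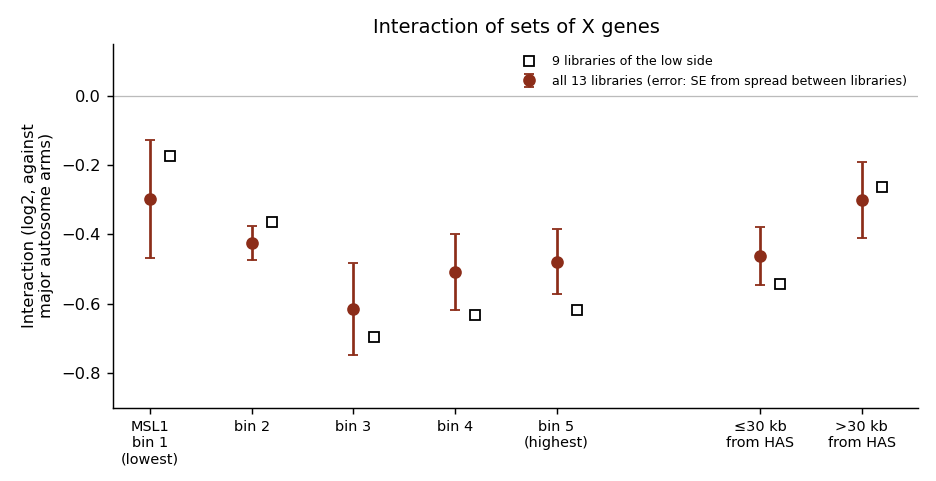
Interaction (log2, relative to the major autosome arms) of X genes in 5 bins of MSL1 binding in S2 cells and by distance to HAS. Values are from library means with SE (filled) and for the 9 libraries of the low side (open). All values lie below 0, from -0.616 to -0.299 in all libraries.

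The 266 X genes with testis enrichment over 4 showed how a single library can bear on the contrast. Their relative level averaged -0.222 ± 0.141 for the roX1 roX2 mutant (SD, n = 3), -0.117 ± 0.059 for the roX1 mutant (SD, n = 4) and 0.403 ± 0.465 for the roX2 mutant (SD, n = 3), while wildtype had an SD of 0.136 (n = 3). roX2 mutant replicate 3 was at 0.931 and the other roX2 mutant libraries at 0.222 and 0.055. The interaction was -0.508 (SE 0.293), against -0.400 (SE 0.066) for the 1733 other X genes. The departure from additivity was thus present without testis-enriched genes.

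By position, the interaction was -0.639 (SE 0.086) for 356 X genes distal of roX1, -0.332 (SE 0.042) for 656 genes between roX1 and v and -0.414 (SE 0.024) for 1121 genes proximal of v. Genes called lower made up 11.0%, 8.69% and 8.56% of these segments. In the distal segment the roX1 mutant ranged from -0.101 to 0.155 and the roX2 mutant from -0.004 to 0.171, with the roX1 roX2 mutant at -0.510 to -0.455, so the level of the roX1 roX2 mutant itself was close to that of the whole X chromosome. All 3 segments were negative.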

How the data were processed

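The authors converted base calls with bcl2fastq 1.8.4 (CASAVA), mapped reads with STAR 2.5.1b, counted them on annotated genes with HTSeq 0.6.1 and deposited raw counts per gene, with neither normalization nor filtering. The tool versions come from the submitters' processing notes. Default HTSeq settings are stated without a strand option and the TruSeq kit does not mark strand, so reads of a gene and its antisense partner cannot be told apart. Between 10.3% and 23.8% of each library was not on a gene and stayed out of library sizes and tests. Counts on genes had a median of 61966067 per library. Positions and symbols came from the Ensembl annotation BDGP6.54, built on the assembly release that the authors used; 247 of 17476 identifiers were not in it and entered the gene tests only.

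Genes whose counts over all libraries came to 20 or more entered edgeR 4.0.16 (R 4.3.3) after TMM normalization, in a quasi-likelihood model of roX1 loss, roX2 loss and their product in all 13 libraries. P-values were adjusted by Benjamini-Hochberg over all genes tested, at a threshold of 0.05. The study's methods used DESeq2, which was run here as an alternative (version 1.42.0). CPM of single genes are scaled by TMM library sizes. Chromosome and set values are means of log2 CPM with a prior count of 2 per library, less the mean over 2L, 2R, 3L and 3R. Their labels were permuted exactly over libraries, with all 4 genotypes shuffled together, so these tests do not isolate the interaction from other differences between genotypes. Marker sums are CPM of the listed genes. Distances to HAS, MSL1 and MOF binding and testis enrichment are features that the authors published for X genes. Per the methods the binding was measured in cultured S2 cells, HAS were taken from earlier studies and testis enrichment came from FlyAtlas2. HAS were split at 30 kb, binding in 5 bins and enrichment at 4. Scripts were tested on simulated counts, where the gene test called 1 of 50 genes with a true log2 interaction of -1 and 2 of 50 with 1. It called 28 of 50 genes at -2 and 32 of 50 at 2, and 3 of 13571 genes without an interaction. A gene that was not called is therefore not shown to be additive.

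Named genes were both roX genes, the MSL subunits, the strain marker and white region genes, and, among called genes that averaged 50 counts or more in some genotype, the 8 most negative and 8 most positive interactions, the 8 X-linked genes called lower and the 6 autosomal genes with the smallest p, and up to 4 called members of each other list. Genes outside this rule are said to be named after their values were seen. The members and lists were chosen with earlier results of these data known. Alternatives were DESeq2, other filters of low counts, TMM on autosomal genes, a replicate block, the side of the first principal component as a block or the low side alone, each library left out, medians, other limits and a linear scale.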

Additional observations from a re-analysis of the deposited data

Results flagged for a closer look

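The difference between the effects of losing a roX gene with and without the other roX gene was itself tested, and the log2 interaction is given here for the genes named in the text that passed. For the X chromosome it was -0.427, which did not pass the exact permutation test over libraries (p = 0.101) and did so only when divided by its standard error, a statistic chosen after the data were seen (exact permutation p = 0.0001998). Among X-linked genes that were lower only in the roX1 roX2 mutant it was -1.10 for AnxB11, -1.45 for Prp5, -1.10 for Idh3a, -0.97 for CG12121, -1.44 for CG4332, -0.90 for Miga, -1.04 for cv, -1.08 for CG7872, -1.15 for CG4239, -1.31 for CG15743 and -2.21 for TwdlX. Among the other X-linked genes it was -4.61 for Cyp4d1, -3.35 for sordd2, -6.42 for CG15599, -1.75 for Pgant7, -2.18 for CG32537, -3.21 for CG10962, -0.64 for Raf and -0.93 for RpL7A. In the region of white, where the background of the lines differs, it was -6.75 for w, -16.5 for CG3588 and -13.3 for CG14419.

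Autosomal genes with a negative interaction had -10.6 for CG13983, -9.80 for CG15905, -9.75 for CG4650, -9.72 for Cpr47Ec, -8.75 for Drsl2, -6.96 for CG9698, -5.26 for Obp56a, -4.59 for CG32073, -3.53 for CG12522, -4.75 for TwdlJ, -2.48 for CG44040, -1.55 for Mal-A5, -1.30 for CG42807, -0.88 for TpnC73F, -1.81 for Hsp26, -2.19 for Hsp23, -2.50 for Hsp68 and -1.54 for RpL22-like. Those with a positive interaction had 14.7 for Sgs5, 9.57 for lncRNA:CR44660, 9.36 for CG13135, 8.15 for Jig, 7.65 for lncRNA:CR45284, 6.996 for Srg2, 5.26 for Gr68a, 4.87 for lncRNA:CR32368, 2.39 for dpr1, 1.498 for cal1, 1.98 for rec, 0.77 for Drice, 1.11 for CG7110, 1.14 for Poc1, 0.78 for Epp and 0.86 for cav. Genes named after their values were seen had 2.57 for Crg-1, 4.51 for Gr8a, 1.46 for Ubi-p5E, 1.92 for lncRNA:CR44498 and 2.48 for lncRNA:CR45533 on the X chromosome, -1.78 for yellow-h on chromosome 4 and 1.98 for FDY and 5.97 for Su(Ste):CR42425 on the Y chromosome. Where a genotype had at most 3 reads in each library (CG3588, CG14419, CG15905, CG4650, Drsl2, CG15599, Sgs5, lncRNA:CR44660, CG13135, Jig, lncRNA:CR45284, Gr8a and Su(Ste):CR42425) the size depends on the prior count and is no bound.

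In 2 of 58 groups of 4 libraries examined, all of the roX1 mutant, 1 library stood apart from the other 3. roX1 mutant replicate 2 had 82.1 CPM of CG44040, against 52.3 to 54.3 CPM in the others, and roX1 mutant replicate 3 had 11.7 CPM of CG7110, against 15.1 to 15.6 CPM. About 1 in 20 groups is singled out by chance.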

How the results depend on the processing

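The X chromosome interaction of -0.364 (mean of fitted values, relative to the major arms) stayed negative under every alternative run. It was -0.420 with at least 10 counts on average, -0.392 with the side of the first principal component as a block, -0.426 on the low side alone, -0.535 as a median, -0.427 from library means, -0.243 on the linear scale, -0.128, -0.535 and -0.475 in the 3 level groups (-0.280, -0.537 and -0.474 from library means), and -0.460 to -0.335 when single libraries were left out. The count of calls rose to 1503 (1106 lower, 397 higher) with DESeq2, and the higher calls to 154 on the low side. With single libraries left out there were 73 to 1401 calls, 52 to 845 lower and 21 to 556 higher. The chromosome 4 value of 0.322 became 0.166 with the side as a block, 0.061 on the low side, 0.112 as a median, 0.170 from library means and 0.201 to 0.459 with single libraries left out. The HAS difference of 0.072 (fitted values) became 0.249 on the low side, 0.223 as a median and -0.030 to 0.256 with single libraries left out, being -0.030 without roX1 roX2 mutant replicate 3 and -0.010 without roX2 mutant replicate 2. The MSL1 difference of 0.060 became -0.381 on the low side, -0.227 as a median, -0.180 from library means and -0.273 to 0.188 with single libraries left out, being -0.273 without roX2 mutant replicate 3 and -0.048 and -0.026 without roX1 mutant replicates 1 and 2. The causes were not tested.

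Of 68 named genes, 8 lost their call on the low side, 5 without a filter and 9 with the replicate block, and no called gene among them changed sign in any setting run. Libraries with the same replicate number did not deviate together across all 4 genotypes (correlations of -0.489 to 0.588 over 16 pairs, 9 of them over 0.1), so the numbers were not taken to pair the samples. All 3 pairs were over 0.1 between the roX1 roX2 mutant and the roX2 mutant (0.172 to 0.283), where each of the 6 libraries correlated best with its own number, and between the roX1 mutant and wildtype (0.424 to 0.588), where 4 of 6 did. These are hints from the data, not the design. A replicate block gave 365 calls, of which 264 were among the 420, an X chromosome interaction of -0.370, a chromosome 4 value of 0.319, a HAS difference of 0.071 and an MSL1 difference of -0.013.

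Depth of 45620194 counts or more leaves only weakly expressed genes limited by counting. The spread of 3 or 4 libraries limits the rest.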

Other observations

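Genes of the Y chromosome, which the comparisons of chromosomes do not use, also differed between the lines. The summed level of 21 Y genes was 3.13 to 3.79 CPM in the roX1 roX2 mutant, 0.878 to 1.27 CPM in the roX1 mutant, 3.37, 10.2 and 2.98 CPM in the roX2 mutant and 7.08 to 9.69 CPM in wildtype. Of these genes 2 had a positive interaction past the threshold (9.52%, against 0.658% of all genes). They were FDY and the repeat gene Su(Ste):CR42425, named after their values were seen. The median interaction of the 21 Y genes was 2.10, further from 0 than the -0.52 of the X genes, and 4.76% were negative. Their median log2 change against wildtype was -0.85 in the roX1 roX2 mutant, -2.79 in the roX1 mutant and -0.06 in the roX2 mutant. FDY had 124, 73 and 98 reads in the roX1 roX2 mutant, 34 to 45 reads in the roX1 mutant, 130, 136 and 87 reads in the roX2 mutant and 247 to 474 reads in wildtype. Counts of the Su(Ste) copies are uncertain because they are near-identical. The father of every larva in the study came from the same FM7i stock per the methods, and the part of the Y chromosome in these values was not tested.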
